A study of Mus musculus with 18 samples.

Results

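The 65 cytosolic and mitochondrial heat shock chaperone genes described here were taken from 14807 genes measured in mouse cortex and in primary cortical cultures. A gene was a member if its single platform symbol belonged to the HSP70 and HSP110, HSP90, small heat shock protein, DNAJA, DNAJB, DNAJC, BAG or CCT series, or was Chordc1, Stip1 or Ahsa1. By name, 8 endoplasmic reticulum genes were left out. Beyond these 8, no gene was left out for where its protein lies in the cell. The members comprised 9 HSP70 and HSP110 genes, 1 HSP90 gene, 5 small heat shock proteins, 4 DNAJA, 9 DNAJB and 19 DNAJC genes, 6 BAG genes, 7 CCT subunits, the 3 named co-chaperones, and Hspb11 and Hspbap1, which match by symbol only and are not chaperones of these families. Of the members, 10 lay in the lowest 30% of genes by mean signal, among them Hsp90aa1, Dnajc17, Dnajb3 and Cct6b, and 55 lay above it. Hspa8, Hspa1b, Hsp90ab1, Hspb1, Hspd1 and Hspe1 were not analysed here, and Hspa1a has a near-identical copy, Hspa1b, so its signal may not be its own alone.

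Heat shock proteins bind unfolded protein. HSP70 works with J-domain proteins of the DNAJA, DNAJB and DNAJC classes, which deliver substrate and stimulate its ATPase, and with nucleotide exchange factors such as HSP110 and the BAG proteins; Stip1 passes clients on to HSP90, whose cycle is set by co-chaperones such as Ahsa1 and Chordc1. The CCT ring folds actin and tubulin, small heat shock proteins hold aggregating proteins, and a mitochondrial branch led by Hspa9 imports and folds proteins in that organelle. Many cytosolic members are induced by heat shock factor 1 through heat shock elements, and sleep loss is known to induce some chaperone transcripts in mouse brain.

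Each of 6 groups had 3 arrays. The cortex groups were C57BL/6J male mice deprived of sleep for 6 h and sampled at once, mice sampled on the next day after the same deprivation, and undisturbed home-cage controls; the recovery time is 18 h in one label and 24 h in another. Each cortex array held the pooled RNA of 3 of the 27 mice. The culture groups were C57BL/6J primary cortical cultures taken 3 h after a cocktail of excitatory neurotransmitters, 24 h after it, or 3 h after a water sham, with 1 dish per array from 3 cultures prepared from newborns or from embryos of days 16 to 18. Signals are log2 RMA values, so a difference of 1 is a doubling; a member is said to have risen or fallen where limma's adjusted p over all 14807 genes was under 0.05. The array medians ran from 6.87 to 7.09, arrays of 1 group correlated at 0.984 to 0.998 over genes, and the spread of values was 2.77 to 2.80 (SD) on culture arrays against 2.29 to 2.31 on cortex arrays. In tissue and in culture, fewer cells of a type and less RNA per cell cannot be told apart. The p-values measure the spread between pools and between dishes, not between single mice.

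The first comparison asked which chaperone transcripts differed directly after 6 h of sleep deprivation. Of the 65 members 4 rose and 0 fell: Dnajb5, an HSP40-type co-chaperone, Chordc1, a stress-inducible HSP90 partner, Hspb8, a small heat shock protein that acts with Bag3 in the disposal of aggregating proteins, and Hsph1, the HSP110 exchange factor of HSP70. The signals were 1.25-fold to 1.42-fold higher in sleep-deprived cortex. The 4 are 6.15% of the members, where 1.63% of all genes changed, 0.723% higher and 0.905% lower.

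Dnajb5 had signals of 10.10, 10.08 and 10.10 in the sleep-deprived pools, 9.46, 9.55 and 9.52 in the recovered pools and 9.60, 9.62 and 9.52 in the control pools. All 3 sleep-deprived pools stood above the other 6, and the recovered and control pools overlapped. The difference between sleep-deprived and control cortex was 0.51 ± 0.04 (SE; adjusted p = 0.0017). Chordc1 had 9.86, 9.83 and 9.78 in the sleep-deprived pools, 9.28, 9.31 and 9.32 in the recovered pools and 9.45, 9.43 and 9.45 in the control pools. Its 3 groups did not overlap at all, with the recovered pools lowest; sleep-deprived cortex differed from control by 0.38 ± 0.03 (adjusted p = 0.0018).

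Hspb8 had 7.49, 7.33 and 7.44 in the sleep-deprived pools, 7.14, 7.12 and 7.23 in the recovered pools and 6.95, 7.0 and 7.13 in the control pools. The sleep-deprived pools were highest, and the lowest recovered pool lay within the control range. The difference from control was 0.39 ± 0.06 (adjusted p = 0.024). Hsph1 had 10.30, 10.35 and 10.51 in the sleep-deprived pools, 9.99, 10.02 and 10.12 in the recovered pools and 10.07, 10.01 and 10.10 in the control pools, again with the sleep-deprived pools on top and the others overlapping. Its difference from control was 0.33 ± 0.06 (adjusted p = 0.0497), just inside the threshold. Leaving out any 1 sleep-deprived or control pool ended the Hsph1 call. The call of Hspb8 ended without sleep-deprived pool 1 or 3 or control pool 1 or 2. Dnajb5 and Chordc1 passed in each of these fits. With all 18 arrays sharing 1 estimate of spread only Dnajb5 passed, and Chordc1 had an adjusted p of 0.56.

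**Figure D1:**
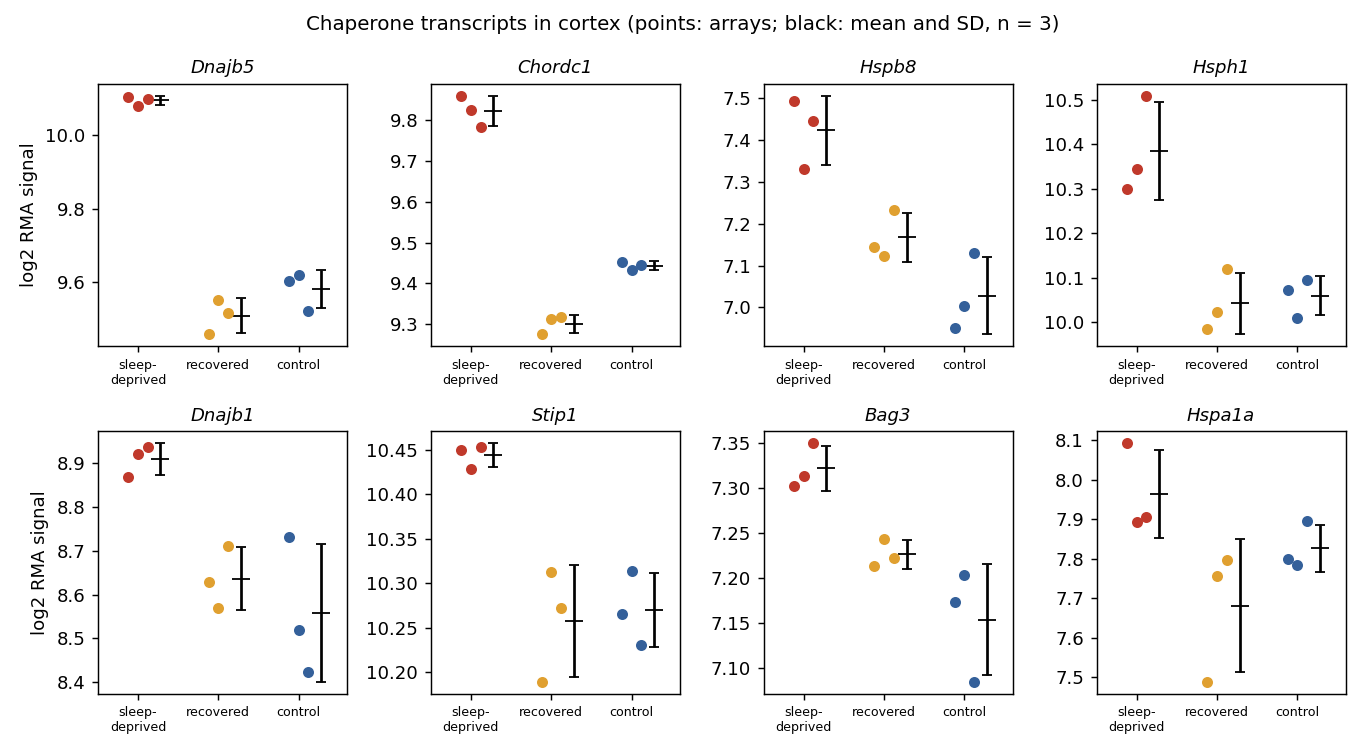
Log2 RMA signal (y axis, a separate range per panel) of 8 chaperone genes in sleep-deprived, recovered and control cortex. Points are arrays, each a pool of 3 mice, and the black marks are the mean and SD (n = 3). In Dnajb5, Chordc1, Hspb8, Hsph1, Dnajb1, Stip1 and Bag3 all sleep-deprived pools lie above all other pools; in Hspa1a sleep-deprived and control pools overlap.

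The promoters of the 4 genes are printed because heat-inducible genes carry heat shock elements near the transcript start, and these letters show which of the 4 have such a match. The windows run from 250 bases before to 50 after an annotated start, from RefSeq on build GRCm38.p6, 5′ to 3′ on the gene's strand, with matches in capitals. Chordc1 is chr9:18292017-18292316 (+), Hsph1 chr5:149636266-149636565 (-), Hspb8 chr5:116422815-116423114 (-) and Dnajb5 the first of its 3 windows, chr4:42949617-42949916 (+).
Chordc1: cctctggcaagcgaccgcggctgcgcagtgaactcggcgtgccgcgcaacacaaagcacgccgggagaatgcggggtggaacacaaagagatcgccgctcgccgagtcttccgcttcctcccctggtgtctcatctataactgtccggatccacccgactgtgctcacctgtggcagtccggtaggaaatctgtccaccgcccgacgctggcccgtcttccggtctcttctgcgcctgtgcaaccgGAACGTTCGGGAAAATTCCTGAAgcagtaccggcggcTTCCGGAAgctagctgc
Hsph1: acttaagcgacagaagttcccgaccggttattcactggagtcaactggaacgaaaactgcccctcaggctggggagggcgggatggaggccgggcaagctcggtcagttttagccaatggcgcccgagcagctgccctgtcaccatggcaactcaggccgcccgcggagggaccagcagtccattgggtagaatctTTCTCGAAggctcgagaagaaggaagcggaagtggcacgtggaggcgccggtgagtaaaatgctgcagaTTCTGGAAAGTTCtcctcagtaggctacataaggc
Hspb8: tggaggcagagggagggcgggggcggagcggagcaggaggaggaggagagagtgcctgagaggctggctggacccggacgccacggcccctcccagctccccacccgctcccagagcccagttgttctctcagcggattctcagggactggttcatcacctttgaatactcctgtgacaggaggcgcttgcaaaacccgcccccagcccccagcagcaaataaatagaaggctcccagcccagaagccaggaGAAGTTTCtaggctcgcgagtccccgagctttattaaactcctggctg
Dnajb5: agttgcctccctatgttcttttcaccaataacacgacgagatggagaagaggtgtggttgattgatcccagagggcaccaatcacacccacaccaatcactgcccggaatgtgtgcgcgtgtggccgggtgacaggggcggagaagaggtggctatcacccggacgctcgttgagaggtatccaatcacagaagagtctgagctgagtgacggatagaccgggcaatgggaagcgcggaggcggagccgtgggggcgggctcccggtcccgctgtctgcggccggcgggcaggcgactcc

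The search was for 2 inverted units of the heat shock element next to each other, GAANNTTC or TTCNNGAA, each of which reads the same on both strands; both forms sharing 3 bases make 3 alternating units. Chordc1 had 5 matches, of which 4 run into each other across the transcript start as 1 unbroken stretch. That stretch counts as 3 overlapping runs of 3 units. Hsph1 had 3 matches, of which 2 overlap from base 16 after the start into 1 run of 3 units, and Hspb8 had a single match from base 3. None of the 3 Dnajb5 windows held a match. The windows of Dnajb1 and Ahsa1, which are listed below as heat-inducible, held none either. Of 53 members with a RefSeq window, 13 (24.5%) held a match, against 4587 of 27025 genes (17%), and 2 members, Chordc1 and Hsph1, held 3 units (3.77%, against 0.662% of genes). Bag3, Dnaja1, Dnaja4, Dnajb4, Hspa1a, Hspb3, Hspb6, Cct2, Cct5 and Dnajc27 held 2 units only. A match is a description of these letters and does not show that a factor binds there.

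**Figure D2:**
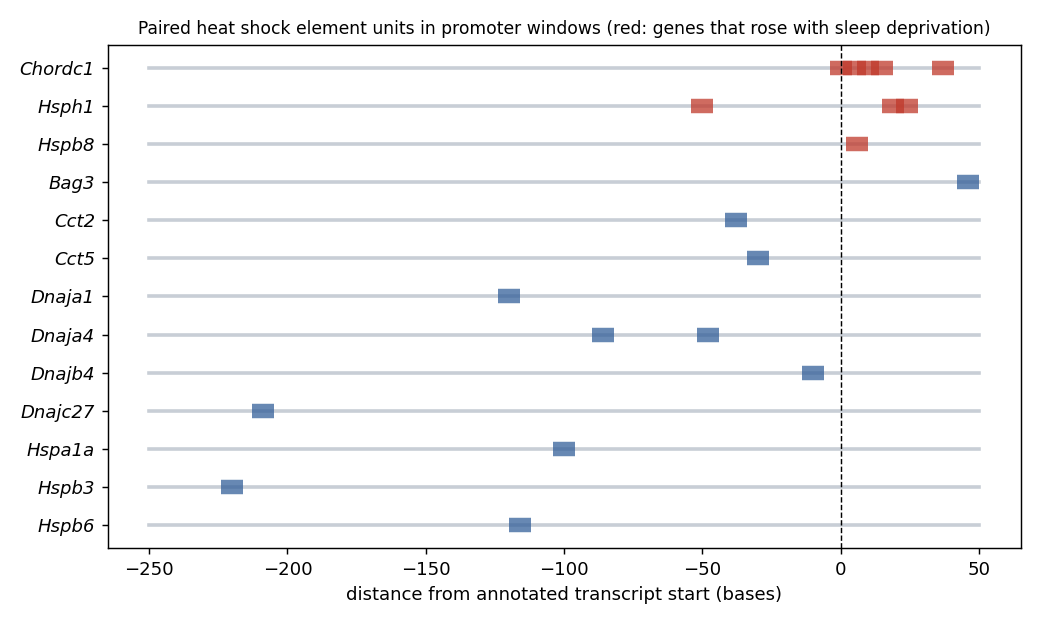
Positions of GAANNTTC and TTCNNGAA matches in the promoter windows of the 13 members that held one (1 window per gene), in bases from the annotated transcript start (dashed line); grey lines are the windows. Chordc1, Hsph1 and Hspb8, in red, rose with sleep deprivation, and their matches include ones downstream of the start; Dnajb5, which also rose, held none.

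Other HSP70-system members were higher in all 3 sleep-deprived pools without passing the test. Dnajb1, the main heat-inducible partner of HSP70, had 8.87, 8.92 and 8.94 in the sleep-deprived pools, 8.63, 8.57 and 8.71 in the recovered pools and 8.73, 8.52 and 8.42 in the control pools. No recovered or control pool reached a sleep-deprived one; the difference from control was 0.35 ± 0.08 (adjusted p = 0.082), and over 13 alternative fits the adjusted p ran from 0.027 to 0.33. Stip1, the HSP70 to HSP90 adaptor, had 10.45, 10.43 and 10.45 in the sleep-deprived pools, 10.19, 10.31 and 10.27 in the recovered pools and 10.27, 10.31 and 10.23 in the control pools. The sleep-deprived pools again lay on top, by 0.17 ± 0.04 over control (adjusted p = 0.092). Bag3, an HSP70 exchange factor that routes clients to autophagy, differed by 0.17 ± 0.04 (adjusted p = 0.083), Dnaja4 by 0.20 ± 0.06 (adjusted p = 0.17) and Ahsa1, the activator of the HSP90 ATPase, by 0.19 ± 0.07 (adjusted p = 0.24).

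Dnajc17, Hspb3 and Hspa12a were lower in all 3 sleep-deprived pools and did not pass. Dnajc17 differed from control by -1.11 ± 0.32 (adjusted p = 0.16); its means, 2.41 ± 0.29 in sleep-deprived and 3.52 ± 0.39 in control cortex (SD, n = 3), are among the lowest signals on the arrays. Hspb3 differed by -0.19 ± 0.07 (adjusted p = 0.28) and Hspa12a, an atypical HSP70, by -0.10 ± 0.04 (adjusted p = 0.40).

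Among the remaining anchors, Hspa1a, the stress-inducible HSP70, averaged 7.96 ± 0.11 in sleep-deprived and 7.83 ± 0.06 in control pools. Hsp90aa1, the inducible HSP90, averaged 4.27 ± 0.41 in sleep-deprived and 4.41 ± 0.19 in control pools, a low signal with a wide spread. Differences of Dnaja1, Hspa4, Hspa9 and Cct2 were 0.10, 0.03, 0.05 and 0.02. None of these passed the test.

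Outside its leading genes the group lay close to the background. Of the 65 members 39 were above 0 in sleep-deprived against control cortex, with a median difference of 0.02, and all genes had a median of -0.003 with 48.2% above 0. In 10 of the 65 members all sleep-deprived pools exceeded all control pools and in 5 they were all lower. Of all genes 7.68% were higher and 11.1% lower without overlap. An unadjusted p under 0.05 was met by 11 members (16.9%), 9 higher and 2 lower, against 13.4% of all genes. By class the median difference was 0.19 over the 3 co-chaperones, 0.12 over the DNAJB genes, 0.06 over DNAJA and BAG, 0.05 over HSP70 and HSP110, 0.02 over CCT, -0.02 over DNAJC and -0.11 over the 5 small heat shock proteins, of which Hspb8 rose; no class was tested against another. Of 16 listed heat-inducible members 10 were measured; 9 of the 10 were above 0, with a median of 0.17, and Chordc1 and Hsph1 passed. Of the 8 measured mitochondrial members, Hspa9 and Dnaja3 among them, none passed, and the median was -0.004.

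**Figure D3:**
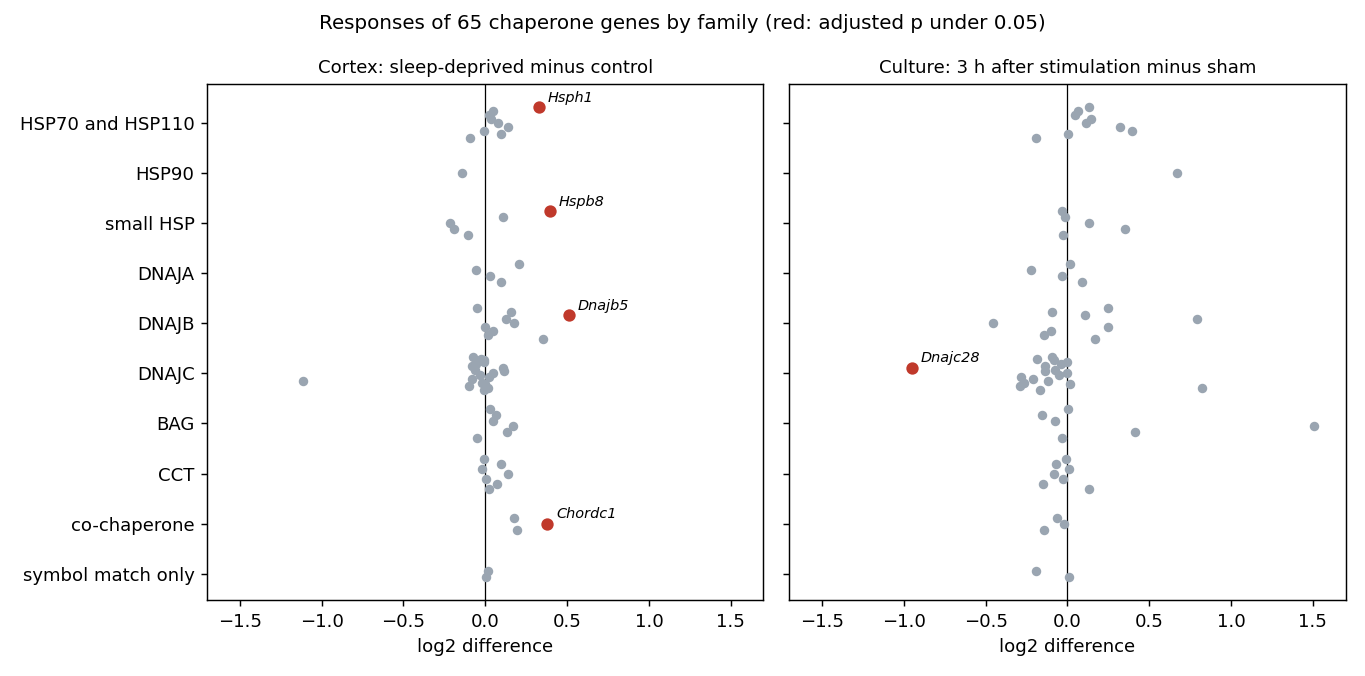
Log2 difference (x axis) of each of the 65 members by family, for sleep-deprived minus control cortex (left) and for culture 3 h after stimulation minus sham (right). Red points passed the test at an adjusted p under 0.05. In cortex Hsph1, Hspb8, Dnajb5 and Chordc1, each from a different family, lie to the right; in culture Dnajc28 lies to the left and the unlabelled point farthest right is Bag3 at 1.51.

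Genes outside the rule were read from fixed lists. Of 12 measured HSP90 partners only Fkbp5, an immunophilin induced by glucocorticoids, rose, by 0.64 ± 0.11 (adjusted p = 0.032). None of 7 HSP70 partners, 5 mitochondrial proteases and chaperones, 8 prefoldin and CCT partners, 3 heat shock factor genes (Hsf2, Hsf4 and Hsbp1) or 2 crystallins passed; Hsf1 and Tcp1 were not analysed here. Of the endoplasmic reticulum genes that the rule leaves out, 7 were measured, and Hspa5, the reticulum's HSP70, rose by 0.80 ± 0.07 (adjusted p = 0.0037) and Hsp90b1 by 0.35 ± 0.06 (adjusted p = 0.035).

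The summed signals of 3 cell-type marker lists differed between the groups without overlap, and their part in the chaperone results was not tested. The summed signal of 6 endothelial markers (log2) was 10.53 to 10.59 in sleep-deprived and 10.63 to 10.78 in control pools, without overlap, and none of the 6 passed singly. That of 6 fibroblast and meningeal markers was 10.18 to 10.25 in sleep-deprived and 10.26 to 10.32 in control pools, and that of 6 astrocyte markers 13.15 to 13.17 in sleep-deprived and 13.11 to 13.13 in control pools. Neuronal sums overlapped, at 15.29 to 15.32 in sleep-deprived and 15.29 to 15.33 in control pools, and so did those of microglia and oligodendrocytes, although the oligodendrocyte gene Opalin fell by 0.84. The choroid plexus sum ranged widely, over 8.50 to 11.29 in sleep-deprived and 8.10 to 10.58 in control pools.

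The second comparison set recovered against sleep-deprived cortex, and it shares the sleep-deprived pools with the first. If the recovery time was 18 h, recovery and time of day cannot be told apart in it. Chordc1, Dnajb5 and Hsph1 fell, and no member rose; 2.26% of all genes changed in this comparison, 1.47% higher and 0.79% lower, against 4.62% of the members. Of all genes called, 217 of 334 were higher, and 237 of 468 after quantile normalization. Chordc1 fell by 0.52 ± 0.03 (adjusted p = 4.1e-04), Dnajb5 fell by 0.58 ± 0.04 (adjusted p = 6.1e-04) and Hsph1 fell by 0.34 ± 0.06 (adjusted p = 0.035). Without any single pool of either group the Hsph1 call was lost, whereas those of Chordc1 and Dnajb5 were kept; with all 18 arrays in the model the adjusted p of Chordc1 was 0.19.

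Hspb8 and Stip1 did not pass in the recovered cortex. Hspb8 averaged 7.17 ± 0.06 in recovered and 7.42 ± 0.08 in sleep-deprived pools, a difference of -0.26 ± 0.06 (adjusted p = 0.081), and Stip1 differed by -0.19 ± 0.04 (adjusted p = 0.060). Dnajb1 differed by -0.27 ± 0.08 (adjusted p = 0.13), Hspa1a by -0.28 ± 0.09 (adjusted p = 0.17) and Dnaja4 by -0.17 ± 0.06 (adjusted p = 0.21), all with every recovered pool below every sleep-deprived one. In the other direction, Hspb6, a small heat shock protein, differed by 0.32 ± 0.10 (adjusted p = 0.16), Dnajc18 by 0.18 ± 0.06 (adjusted p = 0.18) and Dnajc17 by 0.98 ± 0.32 (adjusted p = 0.18).

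In 11 members all recovered pools were below all sleep-deprived pools and in 10 they were above, where 7.92% of all genes were lower and 14.4% higher without overlap. An unadjusted p under 0.05 was met by 16 members (24.6%), 5 higher and 11 lower, against 16.5% of all genes. The median of the 65 was -0.004, against 0.01 over all genes. All 10 measured heat-inducible members were below 0, with a median of -0.23, where 55.7% of all genes were above 0. In 9 members the 3 sleep-deprived pools lay above all 6 recovered and control pools, and in 4 below them; over all genes the shares were 4.98% and 8.69%. Outside the rule Fkbp5 fell by 0.58 ± 0.11 (adjusted p = 0.040), and among the reticulum genes Hspa5 fell by 0.81, Hsp90b1 fell by 0.36 and Dnajc1 fell by 0.27.

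Recovered and control cortex were not separated by the test. No member passed, and 0% of all genes did (limma, 0 of 14807); at an unadjusted p under 0.05 there were 4 members (6.15%), against 2.88% of all genes. Chordc1 had the smallest p, with 9.28, 9.31 and 9.32 in the recovered and 9.45, 9.43 and 9.45 in the control pools, so that the recovered pools were all lower. Its difference was -0.14 ± 0.03, with an adjusted p of 1.0. Hspb3 differed by -0.26, Dnajb7 by 0.28, Dnajc12 by 0.08, Hspb8 by 0.14, Hspb7 by 0.11, Dnajc22 by -0.18 and Bag3 by 0.07, all with an adjusted p of 1.0.

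The third comparison asked how these transcripts differed in culture 3 h after excitatory stimulation. Dnajc28, a J-domain gene of the mitochondrial list, fell, and no member rose; this is 1.54% of the members, where 1.45% of all genes changed, 0.898% higher and 0.554% lower. Of all genes called, 133 of 215 were higher, and 190 of 256 after quantile normalization. Dnajc28 had 6.62, 6.51 and 6.31 in the stimulated dishes at 3 h, 7.25, 7.17 and 7.73 at 24 h and 7.43, 7.17 and 7.69 in the sham dishes. The 3 h dishes lay below all others, and the 24 h and sham dishes overlapped. The difference at 3 h was -0.95 ± 0.18, a 1.93-fold lower signal (adjusted p = 0.0494, and 0.043 with the dish number as a block). The number is that of the sample titles, which do not say that it stands for a culture. The call was lost when any single dish of the 2 groups was left out or the 2 groups were fitted alone, and over 13 alternative fits the adjusted p ran from 7.4e-04 to 0.19.

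The sham dish, 3 h dish and 24 h dish of 1 number deviated together, and the block on that number brought 2 more members past the threshold. With the block 2.42% of all genes passed, against 1.45% without it. Bag3 had 8.71, 7.73 and 9.55 in the stimulated dishes at 3 h, 7.08, 6.91 and 8.49 at 24 h and 6.82, 7.05 and 7.58 in the sham dishes. Each 3 h dish was above every sham dish, but the 3 h dishes were spread over a wider range than the difference. Its difference at 3 h was 1.51 ± 0.53 (adjusted p = 0.26) without the block and 1.51 ± 0.26 (adjusted p = 0.045) with it. Dnajb4, an HSP40 induced by stress, had 11.42, 11.71 and 12.06 in the stimulated dishes at 3 h, 11.08, 10.98 and 11.56 at 24 h and 10.76, 10.94 and 11.10 in the sham dishes. The 3 h and sham dishes did not overlap, and the difference was 0.79 ± 0.20 (adjusted p = 0.11) without the block and 0.79 ± 0.10 (adjusted p = 0.023) with it.

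Dnajc12, a co-chaperone of the aromatic amino acid hydroxylases, had 8.41, 8.40 and 8.54 in the stimulated dishes at 3 h, 7.94, 7.23 and 8.25 at 24 h and 7.46, 7.65 and 7.77 in the sham dishes. The 3 h dishes stood above all others, by 0.83 ± 0.23 over sham (adjusted p = 0.14). In the same comparison Bag2 differed by 0.41 ± 0.13 (adjusted p = 0.19) and Hspa14, a ribosome-associated HSP70, by 0.39 ± 0.13 (adjusted p = 0.22), both higher in every 3 h dish. Dnajc16 differed by -0.26 ± 0.07 (adjusted p = 0.11), Dnajc14 by -0.29 ± 0.08 (adjusted p = 0.12), Dnajc7 by -0.19 ± 0.06 (adjusted p = 0.24) and Dnaja3, a mitochondrial J-domain protein, by -0.22 ± 0.08 (adjusted p = 0.26), all lower in every 3 h dish.

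The 4 members that rose in sleep-deprived cortex did not pass in stimulated culture. Dnajb5 had 10.74, 10.68 and 10.74 in the stimulated dishes at 3 h, 10.49, 10.46 and 10.42 at 24 h and 10.60, 10.61 and 10.62 in the sham dishes. The 3 h dishes were highest and the 24 h dishes lowest, without overlap among the 3 groups, but the 3 h difference was 0.11 ± 0.05 (adjusted p = 0.49). Chordc1 differed by -0.02 ± 0.18, Hspb8 by -0.03 ± 0.43 and Hsph1 by 0.13 ± 0.15, each with overlapping dishes. The standard errors of these 3 were larger in culture than the 0.03, 0.06 and 0.06 of cortex. They are from the fit without the block, so offsets shared by dishes of 1 number enter them. Hspb8, for example, had 8.02, 7.67 and 8.39 in the 3 h dishes and 7.96, 7.53 and 8.70 in the sham dishes, in order of number. Hspa1a differed by 0.32 ± 0.14 (adjusted p = 0.39) and Hsp90aa1, at 5.45 ± 0.52 in stimulated and 4.78 ± 0.76 in sham dishes, by 0.67.

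**Figure D4:**
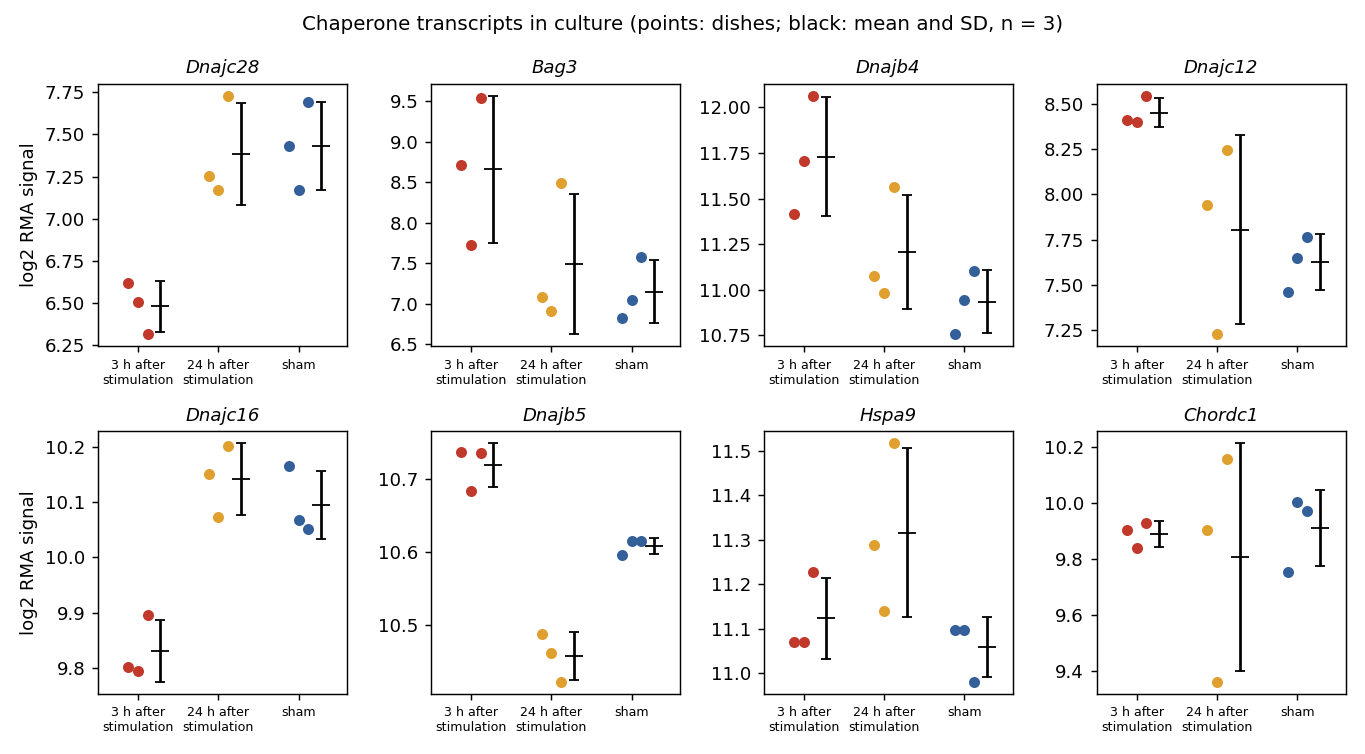
Log2 RMA signal (y axis, a separate range per panel) of 8 chaperone genes in cultures 3 h after stimulation, 24 h after it and after a sham. Points are dishes and the black marks are the mean and SD (n = 3). Dnajc28 is lowest at 3 h, at 6.31 to 6.62, while Bag3, Dnajb4 and Dnajc12 are highest then; Chordc1 overlaps in all groups.

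Over the 65 members the median difference at 3 h was -0.03, as over all genes, and 27 members were above 0. In 9 members all stimulated dishes were above all sham dishes and in 12 below, where 6.94% of all genes were higher and 14.4% lower without overlap. An unadjusted p under 0.05 was met by 14 members (21.5%), 7 in each direction, against 12.7% of all genes. By class the median was 0.11 over the DNAJB genes, 0.12 over HSP70 and HSP110, -0.01 over BAG, -0.03 over CCT and -0.12 over DNAJC. Of the 10 measured heat-inducible members 7 were above 0, where 39.3% of all genes were, and none passed. The 8 measured mitochondrial members had a median of -0.15. Among the markers Nefl, a neurofilament gene, rose by 1.08 and the pericyte gene Pdgfrb fell by 0.89; the neuronal sum was 15.82 to 15.85 in stimulated and 15.66 to 15.72 in sham dishes. The astrocyte sum was 13.54 to 13.67 in stimulated and 13.70 to 13.89 in sham dishes, also without overlap. The part of either in the chaperone values was not tested.

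At 24 h against 3 h after stimulation no member passed, and 0.331% of all genes did. The adjusted p was 0.10 for Dnajc28 (0.90 ± 0.18), 0.11 for Dnajb5 (-0.26 ± 0.05) and 0.12 for Dnajc16 (0.31 ± 0.07). For each of these the 24 h and 3 h dishes did not overlap. Next came Ahsa1 (0.20 ± 0.06), Dnajc12 (-0.65 ± 0.23), Dnajc17 (-0.87 ± 0.32), Dnajb4 (-0.52 ± 0.20) and Dnajb12 (0.17 ± 0.07), with adjusted p of 0.23 to 0.36, and Bag3 differed by -1.17 ± 0.53. At an unadjusted p under 0.05 there were 10 members (15.4%), against 12.3% of all genes. Of the listed genes outside the rule, Pdcl, a phosducin-like partner of CCT, rose by 0.58 ± 0.08 (adjusted p = 0.043).

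At 24 h against sham neither a member nor any other gene passed (0%, limma); at an unadjusted p under 0.05 there were 4 members (6.15%), against 5.92% of all genes. Dnajc17 differed by -0.98, Dnajb5 by -0.15, Hspa12a by -0.44, Hspa9, the mitochondrial HSP70, by 0.26, Dnaja4 by 0.32, Cct8 by 0.19, Hspb3 by 0.31 and Hspb6 by 0.47. Their adjusted p ran from 0.81 to 0.88. In Dnajc17, Dnajb5, Hspa12a, Hspa9, Cct8 and Hspb3 the dishes of the 2 groups did not overlap, and in Dnaja4 and Hspb6 they did. Among all members 5 were higher and 3 lower without overlap, where 3.38% of all genes were higher and 5.02% lower.

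Whether the culture response differed from the cortex response was tested as a difference of differences over the 18 arrays. Dnajb5 and Dnajc28 were lower in this test and no member was higher; 2.07% of all genes changed, 1.12% higher and 0.952% lower, against 3.08% of the members. For Dnajb5 the culture difference of 0.11 was below the cortex difference of 0.51, by -0.40 ± 0.06 (adjusted p = 0.0049). For Dnajc28 the culture difference was -0.95 and the cortex difference 0.11, which gave -1.06 ± 0.20 (adjusted p = 0.013). Both passed in each of 18 alternative fits.

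Among the others, Ahsa1 had -0.34 ± 0.09 (adjusted p = 0.064), Dnajc12 0.81 ± 0.24 (adjusted p = 0.11), Hspb3 0.55 ± 0.18 (adjusted p = 0.15), Dnajb4 0.67 ± 0.23 (adjusted p = 0.18), Dnajc16 -0.24 ± 0.08 (adjusted p = 0.20), Hspa14 0.40 ± 0.15 (adjusted p = 0.23) and Dnajb3 -0.63 ± 0.25 (adjusted p = 0.30). With the replicate block Dnajb4 (adjusted p = 0.013) and Bag3 (1.34 ± 0.29, adjusted p = 0.033) passed as well. Chordc1, Hspb8 and Hsph1, which rose in cortex, had response differences of -0.40, -0.43 and -0.19 that did not pass. Their responses in the 2 systems were thus not shown to differ in the main fit. Chordc1 passed in the compared arrays alone and with array weights, whereas Hspb8 and Hsph1 passed in no alternative. Ahsa1 passed with array weights, without the lowest 30% of genes and without sleep-deprived pool 1. Dnajc12 passed after quantile normalization, in the compared arrays alone and with array weights.

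The last comparison set sham-treated culture against control cortex. As deposited, 42 members were higher in culture, 9 lower and 14 not called. The 51 called are 78.5% of the members, where 76.2% of all genes changed, 61% higher and 15.3% lower. After quantile normalization 32 members were higher and 17 lower, 49 in all, where 70.6% of all genes changed. The median of all genes was itself shifted by 0.50, and by 0.23 after quantile normalization of the deposited values, which have a wider spread on the culture arrays. Relative to the all-gene median, 39 of the 65 members were above it, and the member median was 0.61, or 0.19 after quantile normalization. RNA was extracted with different kits, and tissue, age and kit cannot be told apart. Under both scalings 26 members were higher and 5 lower; 7 passed in opposite directions, Chordc1, Hsph1, Dnaja2, Dnajc6, Dnajc16, Cct6b and Hspb11, and the remaining 27 did not pass under both.

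The CCT subunits were the class with the highest median, at 1.53. Cct3 had 9.79, 10.01 and 9.76 in sham culture and 7.86, 7.79 and 7.98 in control cortex, far outside each other's spread, a difference of 1.98 ± 0.10 (adjusted p = 1.3e-10) and of 1.25 after quantile normalization. Cct4, Cct5 and Cct7 differed by 1.90, 1.89 and 1.53, and by 1.04, 1.0 and 0.63 after quantile normalization. Cct2 and Cct8 differed by 1.12 and 1.09, and after quantile normalization by 0.23 and 0.19, below the all-gene median of that scaling. Cct6b, a testis form of the subunit with a low signal, differed by -0.12 as deposited and by 0.37 after quantile normalization. All 8 measured prefoldin and CCT partners outside the rule were higher in culture as deposited, with a median of 1.04. Of all genes 61% were higher as deposited, and the all-gene median was 0.50. These partners were not examined after quantile normalization.

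Other members were higher in culture under both scalings. Dnajb3 differed by 2.07 at a low signal, and Dnajc2 and Hspa14, partners on the ribosome, by 1.54 and 1.21. Bag1, Bag2 and Bag6 differed by 1.43, 1.22 and 1.17, Dnajc7 by 1.41, Hspb6 by 1.31, Dnajc5, the cysteine string protein of synaptic vesicles, by 1.28, Hspa9 by 1.23 and Ahsa1 by 1.23. After quantile normalization these ran from 0.25 for Bag6 to 2.41 for Dnajb3.

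The 5 members lower under both were led by Dnajc19, a subunit of the mitochondrial import motor, with 5.04, 5.73 and 5.77 in sham culture and 7.31, 7.33 and 7.30 in control cortex. The groups were far apart, by -1.80 ± 0.20, a 3.48-fold lower signal (adjusted p = 9.6e-07), and by -1.77 after quantile normalization. Hspa12b, an endothelial HSP70, differed by -0.79, Hspa1a by -0.68, Hspa4l, an HSP110 form, by -0.37 and Dnajb2, a neuronal J-domain protein, by -0.34, and by -0.66, -1.01, -0.99 and -0.64 after quantile normalization. Of the 14 uncalled members as deposited, Dnaja4, Bag5, Hspb7, Dnajc27, Dnajb7, Dnajb4, Hspb2 and Hsp90aa1 lay between -0.25 and 0.36. After quantile normalization 7 of the 14 passed as lower, Dnaja4, Bag5, Dnajc12, Dnajc15, Dnajc27, Dnajc30 and Dnajb4, and 4 as higher, Hspb7, Dnajb7, Hspb2 and Hsp90aa1.

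**Figure D5:**
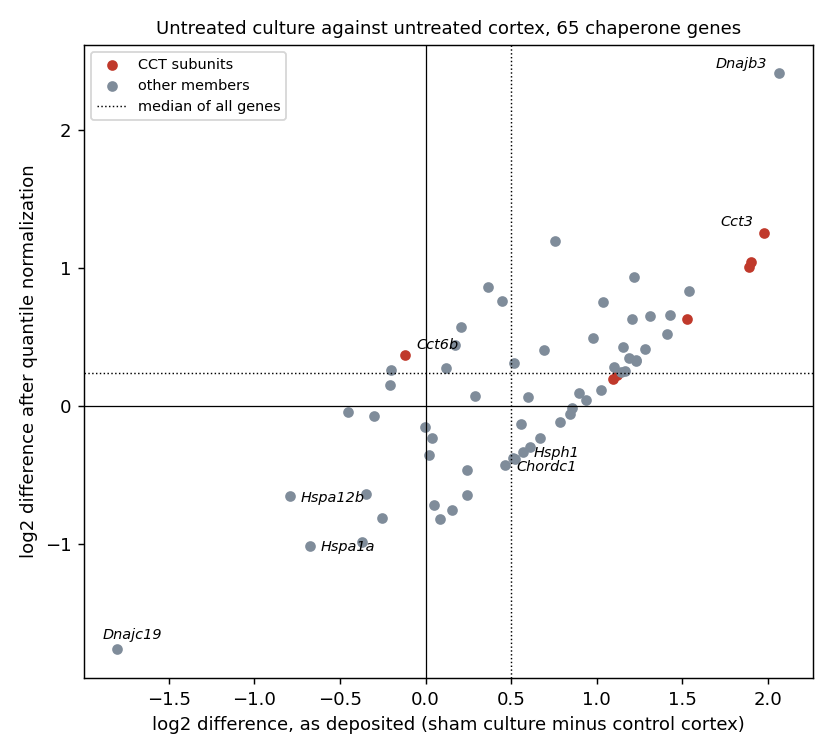
Difference between sham culture and control cortex (log2) for the 65 members, as deposited (x axis) and after quantile normalization (y axis). Dotted lines are the medians of all genes, 0.50 and 0.23, and solid lines are 0. Points at the lower right, such as Hsph1 and Chordc1, change sign with the scaling, whereas Cct3 and Dnajb3 are high and Dnajc19 low under both.

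The culture and the tissue differed in their cells. All 7 measured oligodendrocyte, 7 microglial and 6 endothelial markers were lower in sham culture than in control cortex, with summed signals (log2) of 10.09 to 10.66, 8.06 to 8.21 and 7.43 to 7.49 in culture against 13.07 to 13.16, 10.62 to 10.75 and 10.63 to 10.78 in cortex. Of the astrocyte markers 4 of 6 and of the neuronal markers 5 of 9 were higher in culture as deposited, near the share of all genes. Of all genes 61% were higher and 15.3% lower. The markers were not examined after quantile normalization. Their part in the chaperone differences was not tested. Cryab, a small heat shock protein abundant in oligodendrocytes, differed by -1.80 (adjusted p = 0.0032).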

How the data were processed

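The values were the log2 signals deposited by the authors, made with RMA, a standard summary method for these arrays, per the submitters' processing notes; its version and the set of arrays normalized together are not stated in the labels. Of 23238 probe sets, 14939 had 1 gene symbol in the platform annotation; 1 probe set per gene, that with the highest mean, gave 14807 genes. Differences were tested two-sided with limma 3.58.1 (R 4.3.3) and Benjamini-Hochberg adjustment over these genes. The 9 arrays of each system were fitted together, and all 18 for comparisons of culture with cortex. The fits were tested on simulated data. The members, lists, named genes and tests were chosen with earlier results of these data known; described are members that passed a test, the 8 others with the smallest p in each comparison and a set of anchor genes. Culture arrays sharing a number deviated together (r = 0.202 to 0.552 over 9 pairs, against -0.358 to 0.118 over 18 other pairs), so the numbers pair them; in cortex same-numbered pools gave -0.102 to 0.101. Replicate arrays limit the precision. The alternatives were quantile normalization of the deposited values, other sets of arrays in the fit, the replicate block and removal of the lowest 30% of genes by mean signal. Array weights, the mean of probe sets and leaving out each array of the compared groups were the others. Promoter windows came from RefSeq, build GRCm38.p6.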

Additional observations from a re-analysis of the deposited data

Results flagged for a closer look

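Dnajb5 and Dnajc28 were picked out because their responses differed between the systems by the test of the difference itself. The response difference, stimulated minus sham culture less sleep-deprived minus control cortex, was -0.40 for Dnajb5, with a culture response of 0.11 and a cortex response of 0.51. It was -1.06 for Dnajc28, with a culture response of -0.95 and a cortex response of 0.11. With 3 arrays per group no single array could be tested as an outlier.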

How the results depend on the processing

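Of the 65 members, sleep-deprived against control cortex gave 4 calls. All 18 arrays in 1 model gave 1, the 6 compared arrays alone 2, and fits without 1 array 2 to 3. Of all genes 1.63% passed in the main fit, and 0.209%, 0.635% and 0.486% to 1.23% in these alternatives. Recovered against sleep-deprived cortex gave 3, and 1 with all 18 arrays. It gave 5 after quantile normalization, after removal of the lowest 30% of genes or with array weights. Of all genes 2.26% passed in the main fit, and 0.284%, 3.16%, 5.75% and 5.23% in these alternatives. Stimulated against sham culture gave 1, 8 with all 18 arrays, 3 with the replicate block and 7 with array weights. Of all genes 1.45% passed in the main fit, and 7.9%, 2.42% and 6.15% in these alternatives. Each fit without 1 array gave 0. The compared arrays alone also gave 1, but it was Dnajc12. At 24 h against 3 h there were 0, 1 after quantile normalization, 4 with all 18 arrays and 22 with array weights. Of all genes 0.331% passed there in the main fit, and 0.675%, 5.89% and 19.1% in these alternatives. At 24 h against sham there were 0, and 8 with array weights, where 6.47% of all genes passed. The response difference gave 2, 4 from the compared arrays alone, 4 with the replicate block and 8 with array weights. Of all genes 2.07% passed in its main fit, and 3.63%, 3.47% and 7.13% in these alternatives. Array-weight estimation stopped before its convergence tolerance in several fits. Otherwise the block changed no count of members by over 1.5 times; in cortex, where the numbers do not pair the pools, it gave 4 and 3. Pooled mice and 3 arrays per group limit these calls.

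Over all genes, sleep-deprived against control cortex gave 241 calls, and 31 to 811 under the alternatives, recovered against sleep-deprived cortex 334 and 42 to 774, stimulated against sham culture 215 and 18 to 1170, 24 h against 3 h 49 and 1 to 2829, 24 h against sham 0 and 0 to 958, and the response difference 307 and 156 to 1055. For sham culture against control cortex quantile normalization turned the sign of 12 members called as deposited, Bag4 (-0.014), Cct6b (0.37), Chordc1 (-0.43), Dnaja2 (-0.30), Dnajc16 (-0.39), Dnajc18 (-0.060), Dnajc6 (-0.38), Hspa12a (-0.24), Hspa2 (-0.13), Hspb11 (0.15), Hsph1 (-0.33) and Stip1 (-0.12), and that of the uncalled Bag5, Dnajb4, Dnajc12, Dnajc15, Dnajc17, Dnajc27, Dnajc28 and Dnajc30; the culture arrays' wider spread is removed by its construction. The cause of the other shifts was not tested.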
